A study of Mus musculus with 3 samples.

Results

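The heavy and kappa V segments beside the leading pair, Ighv8-11 and Igkv6-17, made up a small and uneven repertoire in 3 mouse B cell lymphomas. All rows of the count tables that are annotated as immunoglobulin V genes and named Ighv or Igkv were taken, which gave 211 of 37646 genes, 112 Ighv and 99 Igkv. Without the leading pair, 111 heavy and 98 kappa segments remained, and these are called minor segments here. Of the 209 minor segments, 57 had no count in any tumour.

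Polyadenylated RNA was measured in lymphoma cells sorted as B220+GFP+ from the spleens of moribund pBIC mice on the C57BL/6 strain, with 1 library per tumour. The genotype, shared by the 3 tumours, combines floxed alleles of p53 and of Blimp1 with an IKK2ca allele behind a floxed stop (IKK2castopF/stopF) and Cre expressed from the Cg1 locus (Cg1Cre/+). Cre therefore acts in cells that transcribe that locus, and B220 and GFP together were the sort gate. The labels describe the tumours as an ABC-DLBCL model, a counterpart of the activated B cell subtype of diffuse large B cell lymphoma. Normal germinal centre cells, named in the design text as controls, were not analysed here, so every comparison is between tumours or between genes within them. The labels number each library but do not say whether the animals were unrelated, so any spread below is the spread between these samples.

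A B cell builds the variable part of its antibody by joining 1 V segment to D and J segments in the heavy locus, and 1 V segment to a J segment in the kappa or lambda locus. The RAG recombinase makes these joins before the cell meets antigen. Cells of 1 clone carry the same joins, whereas a mixed B cell population uses many V segments. Segments are grouped into families by sequence likeness, so that short reads can fit several members of a family.

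The segments on which the results turn are shown by the sequence of their V exon, the exon after the leader exon, in the sense strand, from GENCODE release M21 on build GRCm38. Where the exon is longer, the first 300 bases are given. The first pair is the leading heavy segment and its relative Ighv8-8, the most counted minor segment. Capitals mark the 12 bases at which these V exons, each 312 bases long, differ.
Ighv8-11: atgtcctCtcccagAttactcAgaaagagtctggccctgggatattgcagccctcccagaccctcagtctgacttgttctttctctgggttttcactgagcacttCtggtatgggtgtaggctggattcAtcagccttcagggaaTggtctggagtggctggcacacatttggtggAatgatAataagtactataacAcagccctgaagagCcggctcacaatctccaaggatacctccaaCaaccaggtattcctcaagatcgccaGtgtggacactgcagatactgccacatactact
Ighv8-8: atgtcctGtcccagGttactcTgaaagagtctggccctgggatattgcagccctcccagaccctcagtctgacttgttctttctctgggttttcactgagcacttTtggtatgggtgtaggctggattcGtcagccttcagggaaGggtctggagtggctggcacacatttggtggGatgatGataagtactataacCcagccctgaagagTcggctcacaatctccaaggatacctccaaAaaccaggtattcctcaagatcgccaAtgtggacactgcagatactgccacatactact
The remaining heavy sequences are Ighv1-19 and Ighv11-2, segments outside Ighv8 that were counted in every tumour. The kappa sequences are the leading segment and the minor segments that led in tumour 1 (Igkv9-129) or in tumours 2 and 3 (Igkv14-126). Capitals mark the codons for tyrosine, tyrosine or phenylalanine, and the conserved second cysteine, after which the joined region begins.
Ighv1-19: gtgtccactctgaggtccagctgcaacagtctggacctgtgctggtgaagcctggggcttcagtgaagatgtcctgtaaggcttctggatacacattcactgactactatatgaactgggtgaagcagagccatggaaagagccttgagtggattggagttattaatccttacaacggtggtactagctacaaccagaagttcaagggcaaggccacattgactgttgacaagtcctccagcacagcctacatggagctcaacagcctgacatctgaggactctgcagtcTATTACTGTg
Ighv11-2: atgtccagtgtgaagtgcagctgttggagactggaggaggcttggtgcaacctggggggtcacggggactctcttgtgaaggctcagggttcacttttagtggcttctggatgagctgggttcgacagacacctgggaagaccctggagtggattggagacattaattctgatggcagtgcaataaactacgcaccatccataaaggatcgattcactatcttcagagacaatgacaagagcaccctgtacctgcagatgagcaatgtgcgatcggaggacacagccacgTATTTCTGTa
Igkv6-17: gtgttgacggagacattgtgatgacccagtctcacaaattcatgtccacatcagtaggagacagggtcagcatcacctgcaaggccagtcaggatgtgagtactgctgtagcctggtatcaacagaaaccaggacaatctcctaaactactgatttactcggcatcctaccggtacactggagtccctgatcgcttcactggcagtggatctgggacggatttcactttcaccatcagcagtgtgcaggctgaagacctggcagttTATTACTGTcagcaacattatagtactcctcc
Igkv14-126: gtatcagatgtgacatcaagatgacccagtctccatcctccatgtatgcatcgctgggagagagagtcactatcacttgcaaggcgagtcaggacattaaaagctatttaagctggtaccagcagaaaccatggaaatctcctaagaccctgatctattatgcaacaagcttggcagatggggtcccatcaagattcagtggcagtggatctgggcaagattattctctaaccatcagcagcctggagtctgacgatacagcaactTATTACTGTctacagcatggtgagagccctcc
Igkv9-129: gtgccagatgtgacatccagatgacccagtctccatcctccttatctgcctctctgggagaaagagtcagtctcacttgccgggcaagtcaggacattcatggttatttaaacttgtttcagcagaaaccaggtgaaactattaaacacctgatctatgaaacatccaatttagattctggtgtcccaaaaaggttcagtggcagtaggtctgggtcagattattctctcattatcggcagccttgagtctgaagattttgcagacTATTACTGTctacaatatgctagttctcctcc
On the reverse strand of chromosome 12 the stretches shown lie at chr12:115567161-115567460 (Ighv8-11), chr12:115294074-115294373 (Ighv8-8), chr12:114708653-114708952 (Ighv1-19) and chr12:114048248-114048547 (Ighv11-2). On the forward strand of chromosome 6 they lie at chr6:70371696-70371993 (Igkv6-17), chr6:67896345-67896642 (Igkv14-126) and chr6:67839969-67840266 (Igkv9-129).

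Tumour 1 held far more minor V counts outside the leading families than tumours 2 and 3, in both chains. Total counts per library were nearly equal, from 15022902 to 15141009, so depth did not separate the tumours. All 7 B lineage genes checked, among them Cd79a, Ms4a1 and Pax5, reached 1 CPM (the count scaled to a library of 1000000 with TMM factors) in every tumour. Because tumour 1 stood apart, means over the tumours are given with their SD and also without it. In these sorted bulk samples, fewer cells with a given V segment and less RNA per cell cannot be told apart.

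Minor heavy segments took 1452 of 5604 Ighv counts in tumour 1, 669 of 3609 in tumour 2 and 1045 of 6228 in tumour 3. As a share these were 25.9% (95% Clopper-Pearson interval 24.8 to 27.1%), 18.5% (17.3 to 19.8%) and 16.8% (15.9 to 17.7%). The interval of tumour 1 lay above the others, and those of tumours 2 and 3 overlapped. The mean share was 20.4% ± 4.84 (SD, n = 3), or 17.7% without tumour 1. The libraries carry no molecular identifiers, so all intervals cover counting error only.

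Most of this heavy share belonged to the Ighv8 family of the leading segment. Its 8 other members took 804, 438 and 915 counts in tumours 1, 2 and 3, or 51.9, 30.4 and 59.6 CPM. The 103 segments of other families took 648, 231 and 130 counts, or 41.8, 16.03 and 8.47 CPM. Their share of Ighv counts was 11.6% (10.7 to 12.4%), 6.40% (5.62 to 7.25%) and 2.09% (1.75 to 2.47%), and the 3 intervals did not overlap. The level outside the family in tumour 1 was 2.61-fold that of tumour 2 and 4.94-fold that of tumour 3, while the Ighv8 relatives were highest in tumour 3.

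Minor kappa segments were a much smaller share of their chain. They took 897 of 13378 Igkv counts in tumour 1, 212 of 16751 in tumour 2 and 115 of 18744 in tumour 3. The shares were 6.71% (6.29 to 7.14%), 1.27% (1.10 to 1.45%) and 0.614% (0.507 to 0.736%), with no overlap between intervals. The mean share was 2.86% ± 3.34 (SD, n = 3), and without tumour 1 it was 0.940%. In level, tumour 1 had 57.9 CPM of minor kappa transcripts, tumour 2 had 14.7 CPM and tumour 3 had 7.49 CPM, a 7.73-fold difference between tumours 1 and 3. The other 8 segments of the Igkv6 family contributed 71, 22 and 12 of these counts.

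**Figure D1:**
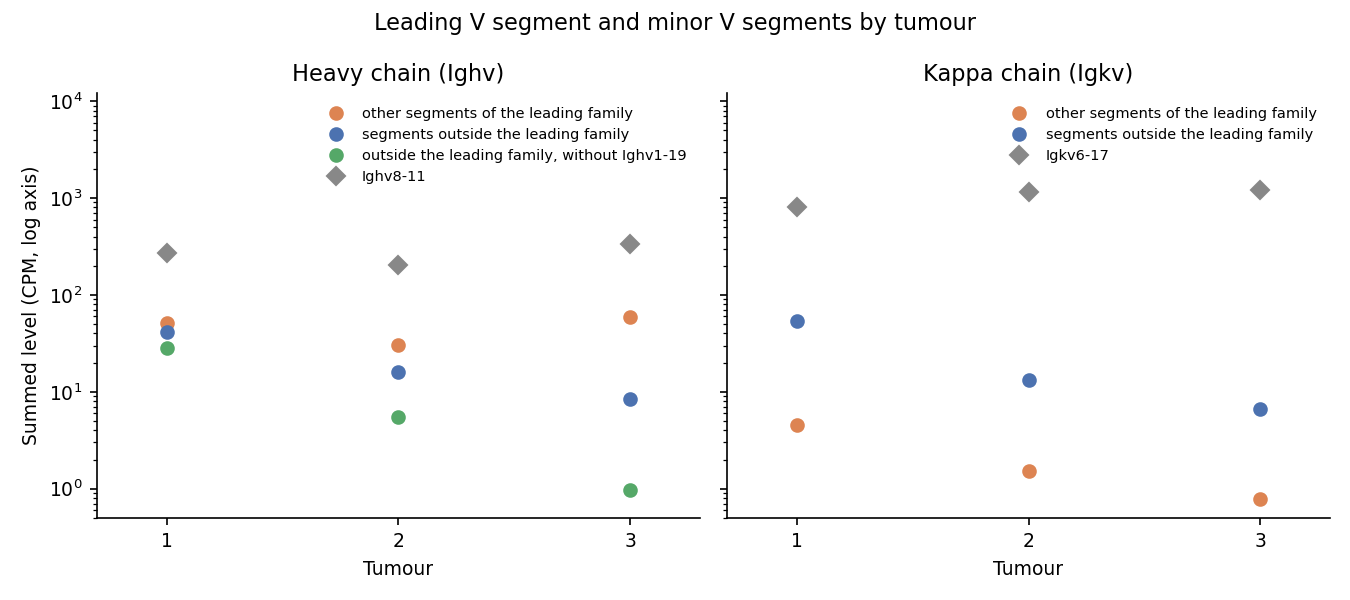
Summed level (CPM, log axis) of the leading segment (grey diamonds), its family relatives (orange), the segments of other families (blue) and, for the heavy chain, those without Ighv1-19 (green), by tumour; each point is 1 library. Outside the leading families the points stand at 41.8, 16.03 and 8.47 CPM for heavy and at 53.3, 13.2 and 6.71 CPM for kappa segments in tumours 1, 2 and 3, while the leading segments do not share that order.

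The chains differed in how much of the minor signal came from relatives of the leader. The summed level of minor heavy segments exceeded that of minor kappa segments by 0.69, 1.66 and 3.18 on the log2 CPM scale in tumours 1, 2 and 3, a mean of 1.85 ± 1.26 (SD, n = 3). The two-sided exact sign-flip permutation test gave p = 0.25, the smallest value that 3 tumours allow. With both leading families left out, the log2 differences were -0.35, 0.28 and 0.34, with a mean of 0.09 ± 0.38 and an exact p of 1. The heavy excess was thus carried by Ighv8 segments, and outside the leading families it did not keep 1 direction. Without Ighv1-19 as well, a choice made after seeing the data, heavy stood at 28.7, 5.48 and 0.977 CPM in tumours 1, 2 and 3. Kappa outside Igkv6 stood at 53.3, 13.2 and 6.71 CPM, above that heavy level in each tumour.

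Tumour 1 also used more different segments. At least 1 count fell on 73 minor heavy segments in tumour 1, on 27 in tumour 2 and on 15 in tumour 3, of 111. For kappa the numbers were 65, 44 and 27 of 98. Only 9 heavy and 18 kappa minor segments had counts in all 3 tumours, against 47 heavy and 20 kappa segments counted in tumour 1 alone. In tumour 2 alone these were 3 and 5, and in tumour 3 alone 2 and 3. With at least 10 counts in total, 17 of 19 minor heavy and 27 of 32 minor kappa segments were highest in tumour 1. Of all 15873 rows at that minimum, 33.5% were highest there. Segments can meet this minimum through 1 tumour. The share of all genes counted in tumour 1 alone was not computed. With a minimum of 10 counts, 15, 3 and 2 heavy segments and 27, 4 and 2 kappa segments remained in tumours 1, 2 and 3. A segment without a count could still hold up to 3 counts, which is 0.194, 0.208 and 0.195 CPM in the 3 libraries.

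The sets of tumours 2 and 3 were compared with that of tumour 1, which held 65.8% of all minor heavy and 66.3% of all minor kappa segments. Of the 27 minor heavy segments of tumour 2, 23 (85.2%) were also counted in tumour 1, which is 31.5% of the 73 there. Of the 15 in tumour 3, 12 (80.0%) were counted in tumour 1, 16.4% of its set. For kappa, 39 of the 44 segments of tumour 2 (88.6%) and 24 of the 27 of tumour 3 (88.9%) were counted in tumour 1, which is 60.0% and 36.9% of its 65. Tumours 2 and 3 shared 10 heavy and 18 kappa segments, 66.7% of the tumour 3 set in each chain and 37.0% and 40.9% of the tumour 2 set.

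Numbers of segments were also compared at matched counts. When the counts outside the Ighv8 family were thinned to 130 in each tumour, the expected number of heavy segments seen was 39.2 in tumour 1, 17.4 in tumour 2 and 9 in tumour 3. Outside the Igkv6 family, thinned to 103 counts, it was 35.1, 31.3 and 23 kappa segments. Without Ighv1-19 as well, thinned to 15 counts, it was 11.3, 8.84 and 8 heavy segments, closer together than with it, though at a lower number of counts. The effective number of segments (inverse Simpson index) outside the leading families was 7.78, 2.23 and 1.27 for heavy and 19.7, 13.6 and 4.83 for kappa in tumours 1, 2 and 3. A single segment, Ighv1-19, dominated the heavy value, with 31.5%, 65.8% and 88.5% of the counts outside Ighv8.

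**Figure D2:**
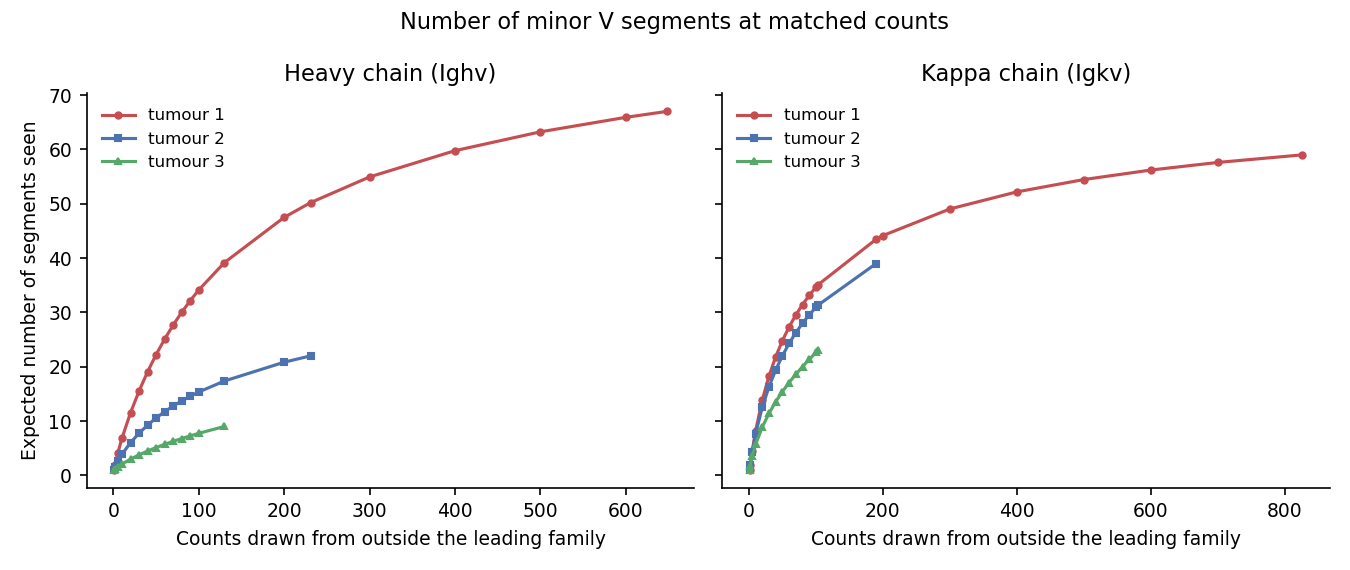
Expected number of minor V segments seen (y axis) when the given number of counts (x axis) is drawn from outside the leading family, computed without random draws, for each tumour. At 130 heavy counts the curves stand at 39.2, 17.4 and 9 segments in tumours 1, 2 and 3, and at 103 kappa counts at 35.1, 31.3 and 23.

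Rows that should give little functional transcript show what a low count means here. The 48 heavy V pseudogenes had 4, 3 and 5 counts in tumours 1, 2 and 3, and the 42 kappa V pseudogenes had 11, 2 and 13. This is 0.0833, 0.0625 and 0.104 counts per heavy pseudogene, against 6.29, 2.24 and 1.26 counts per heavy segment outside Ighv8. For kappa it is 0.262, 0.0476 and 0.310 counts per pseudogene, against 9.18, 2.11 and 1.14 per segment outside Igkv6. The highest pseudogene count in any library was 6. Without Ighv1-19, the 102 heavy segments outside Ighv8 had 444, 79 and 15 counts, so the heavy remainder of tumour 3 stood at 15 counts over 8 segments, 5 of them with a single count. The 89 T cell receptor V segments, which B cells do not rearrange, had 42, 37 and 22 counts. Of these 89 rows, 19, 19 and 15 were detected, and the highest count on any of them was 9, 5 and 3. T cell genes were also counted in every tumour, Trac with 59, 108 and 94 counts. These V rows need not hold stray reads only, and the source of their counts was not tested.

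Ighv8-8 (ENSMUSG00000104452.1) was the most counted minor segment in each tumour, with 770, 427 and 900 counts, or 49.7, 29.6 and 58.6 CPM. It was lowest in tumour 2, as was the leading Ighv8-11 with 4152, 2940 and 5183 counts. Per 100 counts on Ighv8-11 there were 18.5, 14.5 and 17.4 counts on Ighv8-8 (16.8 ± 2.07, SD, n = 3). The V exons of this pair are 96.15% identical, and 34 of the 309 windows of 50 bases in the Ighv8-8 transcript also occur in Ighv8-11. A window has the length of a read. Within 2 mismatches of Ighv8-11 lay 192 of these windows, and within 5 lay all 309.

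Counts on the other Ighv8 segments were far lower than on Ighv8-8. Ighv8-5, with a V exon 95.51% identical to that of Ighv8-11 and 148 windows within 2 mismatches, had 4, 2 and 9 counts. Ighv8-12, at 92.95% identity and 101 such windows, had 4, 2 and 1. Ighv8-6, at 90.38% identity and 71 such windows, had 24, 1 and 3 counts, highest in tumour 1. Ighv8-9, at 91.67% and 93 windows, had 1, 0 and 0. Ighv8-9, Ighv8-12 and Igkv6-25 fall outside the naming rule and were chosen with their values in view. Ighv8-10, a pseudogene next to the leader, had 3, 2 and 3. In the other chain, Igkv6-25 shared 103 of 331 windows exactly with Igkv6-17 and had 8, 0 and 1 counts beside 12481, 16539 and 18629 on the leader. Whether reads with several equal matches were counted is not given in the sources used here.

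Ighv1-19 (ENSMUSG00000096410.2), a member of the large Ighv1 family, was the most counted segment outside Ighv8 in every tumour. It had 204, 152 and 115 counts, or 13.2, 10.5 and 7.49 CPM (10.4 ± 2.84, SD, n = 3). Its level fell from tumour 1 to tumour 3, over a narrower range than the other segments outside Ighv8. Those summed to 28.7, 5.48 and 0.977 CPM, a 29.3-fold range. Per 100 counts on Ighv8-11 there were 4.91, 5.17 and 2.22 counts on Ighv1-19. Ighv1-19 is not close to the leader: its V exon is 53.73% identical, and its closest 50-base window differs from Ighv8-11 at 17 bases. Within its family, 89 of its 401 distinct windows also occur in another V row, at most 40 of them in Ighv1-34.

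The other heavy segments were counted mainly in tumour 1. Ighv1-26 had 95, 25 and 0 counts, or 6.13 CPM in tumour 1 and 1.73 CPM in tumour 2. Ighv1-53 had 24, 1 and 0 counts, Ighv9-3 had 13, 2 and 0, and Ighv6-3 had 8, 6 and 0. Ighv14-2 had 16 and Ighv4-1 had 14 counts in tumour 1 and none elsewhere. The level of Ighv14-2 in tumour 1 was 4.96-fold the limit of 3 counts in tumour 2, and that of Ighv4-1 was 4.34-fold. These ratios leave out counting error in tumour 1. Ighv1-42 was spread more evenly, with 9, 7 and 2 counts. In all, 8 heavy segments had 10 to 16 counts in tumour 1 and none in the others, and no heavy segment showed such a pattern for tumour 2 or 3. The share of all genes with such a pattern was not computed.

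Among kappa segments, Igkv9-129 (ENSMUSG00000093906.5) was the most counted minor segment of tumour 1 and was not detected elsewhere, with 112, 0 and 0 counts. That is 7.23 CPM, 34.7-fold the limit of 3 counts in tumour 2 and 37.0-fold that in tumour 3, with counting error in tumour 1 left out. It made up 12.5% of the minor kappa counts of tumour 1. Its closest window to Igkv6-17 has 12 mismatches. Of its 352 distinct windows, 45 also occur in another V row, Igkv9-124.

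Igkv14-126 (ENSMUSG00000094345.2) was instead counted in all 3 tumours at similar levels. It had 30, 31 and 42 counts, or 1.94, 2.15 and 2.74 CPM (2.27 ± 0.414, SD, n = 3), and led the minor kappa segments of tumours 2 and 3. With fewer counts on the other kappa segments there, its part of the minor kappa counts was 3.34%, 14.6% and 36.5% in tumours 1, 2 and 3. Per 100 counts on Igkv6-17 it had 0.240, 0.187 and 0.225 counts. No 50-base window of its transcript occurs in another V row, and its closest window to the leader has 11 mismatches.

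The next kappa segments again leaned to tumour 1. Igkv10-96 had 89, 7 and 1 counts, Igkv1-110 had 53, 4 and 1, Igkv5-39 had 42, 3 and 2, Igkv1-135 had 34, 8 and 0, and Igkv8-28 had 31, 2 and 0. Some did not. Igkv8-24, with 12, 26 and 0 counts, and Igkv15-103, with 7, 13 and 1, were highest in tumour 2, and Igkv4-91 had 21, 21 and 0. Igkv14-111, with 18, 4 and 16 counts, Igkv19-93, with 16, 1 and 9, and Igkv2-109, with 12, 0 and 5, were lowest in tumour 2. In the leading family, Igkv6-15 had 32, 6 and 0 counts and Igkv6-23 had 20, 5 and 7.

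By family, the Ighv1 segments led outside Ighv8, as they do in number. This family holds 53 of the 111 minor heavy segments and had 449, 199 and 119 counts, which is 69.3%, 86.1% and 91.5% of the counts outside Ighv8. Ighv5, a family close to the D segments, had 38, 8 and 3 counts over 10 segments. Ighv2, another such family, had 32, 5 and 1 over 9 segments. Ighv9 had 25, 2 and 0 counts, Ighv14 had 25, 0 and 0, and Ighv6 had 22, 6 and 0. Of the 14 heavy families outside Ighv8, 13, 9 and 5 had a count in tumours 1, 2 and 3, and 12 had their highest CPM in tumour 1. Ighv15, with 1 segment, had no count.

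The kappa families were more even. Igkv9 had 121 counts in tumour 1, Igkv1 had 120, Igkv4 had 110 and Igkv10 had 104, and each held 12.6% to 14.6% of the counts outside Igkv6. Of these, Igkv4 is the largest family with 26 of the 98 minor segments. In tumour 2 the leading families were Igkv8 with 43 counts, Igkv4 with 42 and Igkv14 with 35. In tumour 3, Igkv14 alone had 58 of 103 counts outside Igkv6, or 56.3%. Its summed counts of 58, 35 and 58 made it the family with the smallest relative spread among those with at least 100 counts in total. Of 19 kappa families outside Igkv6, 14, 16 and 12 were detected in tumours 1, 2 and 3, and 12 were highest in tumour 1. Igkv18 and Igkv20, with 1 segment each, had no count.

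**Figure D3:**
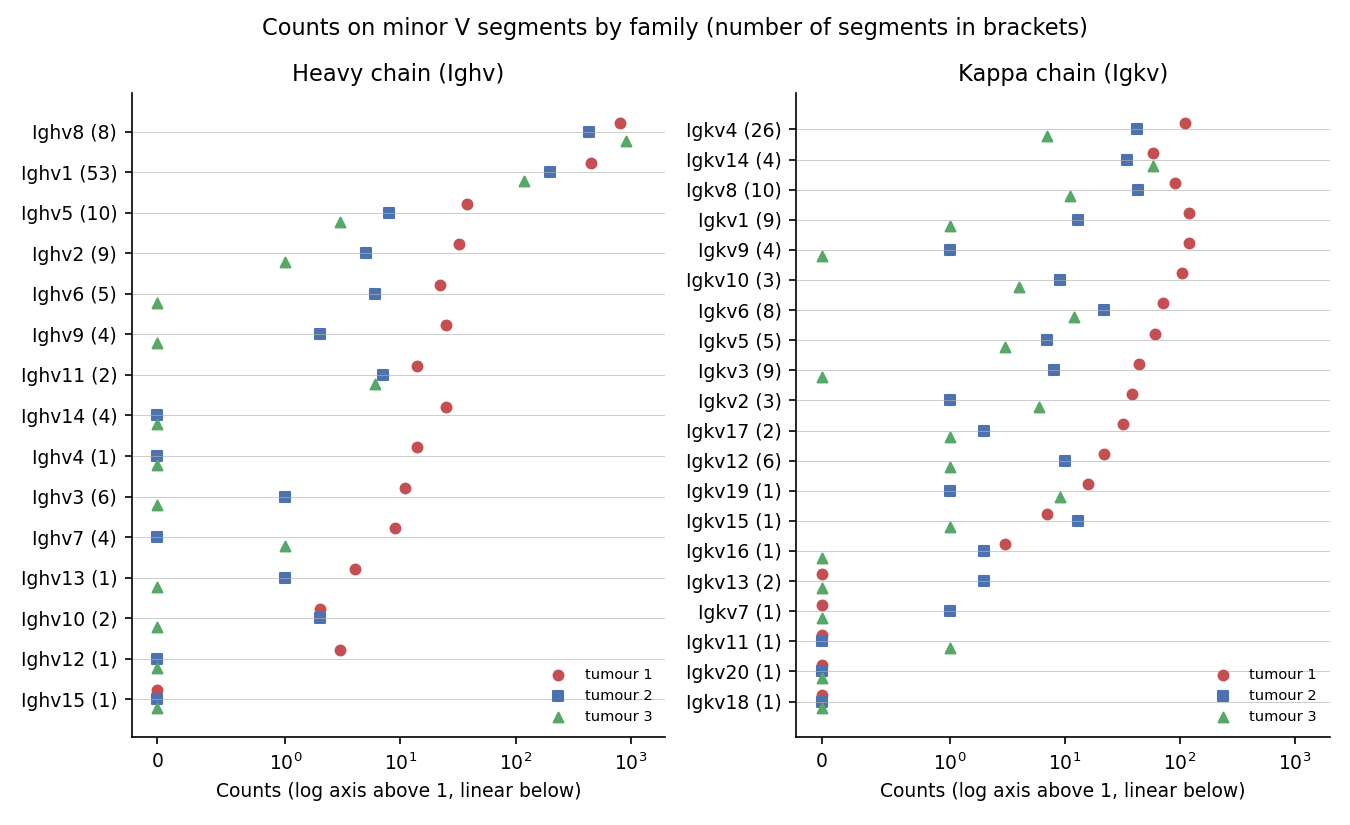
Counts on minor V segments (x axis, log above 1 and linear below) by V family, with the number of segments in brackets, for tumours 1 (circles), 2 (squares) and 3 (triangles). Tumour 1 has the highest counts in most families, the exceptions among large ones being Ighv8 (804, 438 and 915) and Igkv14 (58, 35 and 58).

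Segments known from particular antibody responses were read from lists. Ighv11-2 with Igkv14-126, and Ighv12-3 with Igkv4-91, encode antibodies to phosphatidylcholine that are typical of B1 cells, a self-renewing B cell subset. Ighv11-2 had 14, 7 and 6 counts, so that both segments of the first combination were detected in all 3 tumours. Of the heavy segments outside Ighv8, 5 of 103 were counted in every tumour. Ighv12-3 had 3, 0 and 0 counts. The summed level of these 4 segments was 4.39, 4.09 and 3.13 CPM. Igkv14-126 made up most of the sum in tumour 3, where its level was highest, while Igkv4-91 had 1.36, 1.46 and 0 CPM and Ighv11-2 had 0.904, 0.486 and 0.391 CPM. Counts per segment do not show which heavy and kappa segments were in the same cell. Ighv7-1 and Igkv7-33, used by the T15 antibody to phosphorylcholine, had 4, 0 and 0 and 0, 1 and 0 counts. Ighv1-72, used in the response to the hapten NP, had no count, but 26 of its 347 windows are its own and the rest occur in other V rows.

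The place of a segment in the locus was compared next. Joining in the heavy locus removes the DNA between the V segment used and the D segments on that chromosome, and segments on the far side remain. All 112 heavy segments lie on the same strand. Ighv8-11 lies 2137.4 kb from Ighj1 and is the 95th segment counted from J, so 94 minor segments lie between it and J and 17 beyond it. Outside Ighv8, 56, 20 and 7 of the 88 segments on the J side were detected in tumours 1, 2 and 3. Beyond the leader 11, 2 and 2 of 15 were detected. The detected shares were thus 63.6%, 22.7% and 7.95% on the J side and 73.3%, 13.3% and 13.3% beyond. Ighv8-8, Ighv1-19 and Ighv11-2 all lie on the J side, at -273, -859 and -1519 kb from the leader, where negative means towards J.

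The nearest heavy V rows showed no more than 3 counts in any library. Ighv1-66 and the pseudogene Ighv1-65 had no count, Ighv1-67 had 1, 0 and 0, and the pseudogene Ighv8-10 had 3, 2 and 3. Around Igkv6-17, which lies 351.1 kb from Igkj1, Igkv8-18 had no count, Igkv8-16 had 0, 1 and 0, Igkv8-19 had 8, 1 and 0, and Igkv6-15 had 32, 6 and 0. On the forward strand of Igkv6-17 lie 38 of the 99 kappa segments. The 13 minor kappa segments on the J side of the leader had 81, 18 and 2 counts. The 85 on the far side had 816, 194 and 113. Outside Igkv6, the J side had 44, 9 and 0 counts over 10 segments, which is 4.40, 0.900 and 0 counts per segment, against 9.78, 2.26 and 1.29 beyond the leader.

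**Figure D4:**
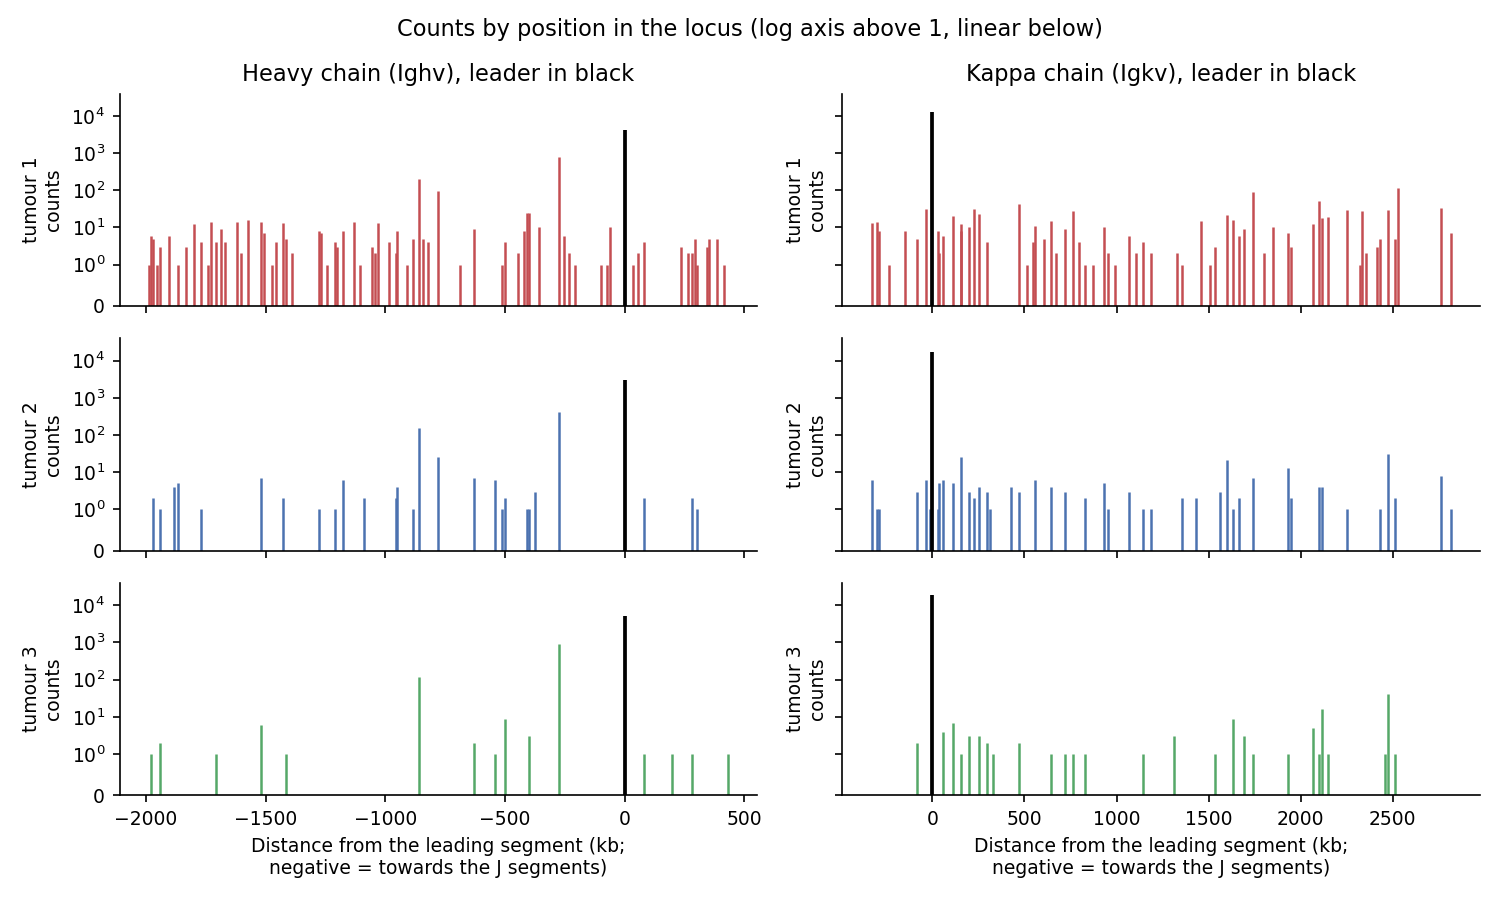
Counts on each V segment (y axis, log above 1 and linear below) by its distance in kb from the leading segment (x axis, negative towards the J segments), 1 row of panels per tumour, with the leader in black. Segments with counts are spread over both loci in tumour 1 and thin out in tumours 2 and 3, where Ighv8-8 at -273 kb and Ighv1-19 at -859 kb stay visible.

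Sequence likeness to the leader and count were then set side by side for all minor segments. In the heavy chain the 8 Ighv8 relatives have a closest window with 0 to 3 mismatches, and no other family comes closer than 8. Of the other families, 96 segments have a closest window over 10 mismatches away. They held 628, 226 and 129 counts, or 43.3%, 33.8% and 12.3% of minor heavy counts. In the kappa chain, 28 segments are that far and held 382, 60 and 63 counts, or 42.6%, 28.3% and 54.8%. The Spearman correlation between V exon identity and summed count was 0.08 over 111 heavy and 0.09 over 98 kappa segments, which share libraries and, within families, sequence. Each minor segment has at least 8 windows found in no other V row, with a median of 246 for heavy and 245 for kappa.

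**Figure D5:**
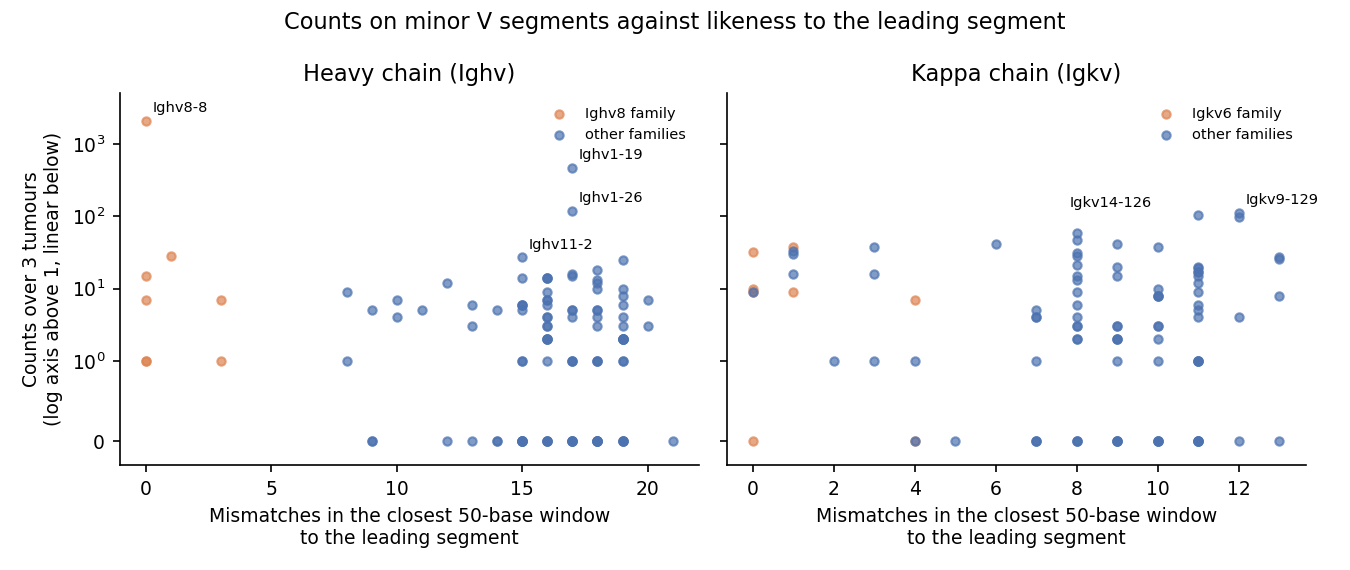
Counts over the 3 tumours (y axis, log above 1 and linear below) against the mismatches between the closest 50-base window of a minor segment and the leading segment (x axis), with the leading family in orange and other families in blue. Ighv8-8 stands apart at 0 mismatches with 2097 counts, and Ighv1-19 (471 counts) and Ighv1-26 (120 counts) stand at 17 mismatches.

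The edgeR variability test asked whether a gene varied more between the tumours than genes of similar abundance. Of 11478 genes that reached the minimum count in every tumour, 16 passed an adjusted p of 0.05, which is 0.139%. Of the 209 minor segments 3 met that minimum, Ighv8-8, Ighv1-19 and Igkv14-126, and none of them passed. Their Benjamini-Hochberg adjusted p was 0.997 each, with unadjusted edgeR p of 0.219, 0.614 and 0.846. None of the 5 V segments tested, the leading pair included, had an unadjusted p under 0.05, against 6.27% of all genes. Segments with few or no counts in a tumour, such as Igkv9-129 (112, 0 and 0) and Igkv10-96 (89, 7 and 1), did not meet that minimum and were not tested here.

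With a minimum on the mean count instead, 19 V segments entered and edgeR called 0 of 12828 genes (0.0%), with 781 at an unadjusted p under 0.05. Igkv9-129 had the smallest adjusted p of the segments, 0.140. An unadjusted p under 0.05 was found for 11 of these 19 and for 6.09% of all genes. Without a filter, 164 of 25500 genes passed (0.643%), and 4 of the 154 V segments tested did. They were Igkv9-129 (edgeR adjusted p = 1.07e-05), Ighv1-26 (0.00935), Igkv17-121 (0.0207) and Igkv10-96 (0.0233), each highest in tumour 1. Igkv17-121, with 27, 0 and 0 counts, was named after its values were seen. Both of these settings admit segments through the 1 tumour where they are high, so these counts say nothing of the minor segments as a class.

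Other immunoglobulin rows were read beside the V segments. The 3 Ighj segments other than Ighj4, the most counted Ighj, had 44, 15 and 1 counts in tumours 1, 2 and 3, the order of the V segments outside the leading families but not of the minor heavy total. The 4 Igkj segments other than Igkj1, the most counted Igkj, had 350, 133 and 353 counts and did not follow that order. Ighd, the constant gene of IgD on naive B cells, had 151, 6 and 5 counts, or 9.75, 0.416 and 0.326 CPM. Ighg2c, a switched isotype, had 714, 19 and 15 counts. Ighd and Ighg2c were highest in tumour 1. The more counted Ighg3 had 77895, 64080 and 95004 counts and was highest in tumour 3. Ighm had 8342, 6208 and 7960 counts and was lowest in tumour 2. The part of cells with these constant genes in the minor V counts was not tested.

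Marker lists of cells that the gate could hold were also read. The summed level of 7 naive and follicular B cell genes was 940, 802 and 721 CPM in tumours 1, 2 and 3, with 4 of 7 at 1 CPM or more in every tumour. Within that list, Cr2, a complement receptor of mature B cells, had 38, 0 and 1 counts, while Fcer2a, the IgE receptor CD23, had 17, 17 and 7. The 7 B lineage genes summed to 3953, 2484 and 2102 CPM, and 6 of them were highest in tumour 1. Plasma cell genes, also 7, summed to 575, 1030 and 530 CPM with 5 at 1 CPM in every tumour. Members of this list moved differently. Jchain, which links secreted antibody into polymers, was lowest in tumour 1 with 35.5, 413 and 232 CPM. Xbp1, a secretory regulator, was lowest in tumour 3 with 93.4, 157 and 60.9 CPM, as were Edem1 with 305, 320 and 162 CPM and Slamf7 with 134, 120 and 64.4 CPM. Sdc1 stayed at 0.326 to 0.486 CPM. The germinal centre list summed to 97.3, 122 and 92.8 CPM.

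Lists of other lineages differed in order. T cell genes summed to 41.8, 45.4 and 94.8 CPM, with 6 of 7 at 1 CPM in every tumour and none highest in tumour 1. Myeloid genes summed to 61.3, 78.7 and 10.4 CPM, with 3 of 7 at that level. The myeloid sum followed Lyz2 (lysozyme), highest in tumour 2, but 5 of these 7 genes were highest in tumour 1, among them the granule gene Ngp with 371, 85 and 15 counts. Erythroid genes summed to 5.81, 21.02 and 120 CPM, with 2 of 5. None of the genes of these lists was at 0 in all tumours. The part of these cells in the V counts was not tested.

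Genes specific to V(D)J joining were at or near 0. Rag1 and Rag2, which encode the recombinase, had no count in any tumour, and Dntt, which adds bases at the joints, had 0, 0 and 1.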

How the data were processed

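RNA of 3 tumours of 1 group was measured. The authors deposited whole-number read counts for each gene. The submitters' processing notes list FastQC, STAR 2.5.2b, featureCounts 1.6.0 and mm10. Settings, strand use and the handling of reads with several matches are not stated in these sources, so counts on near-identical V segments are uncertain.

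All 211 segments matched GENCODE release M21 (GRCm38, the assembly of mm10). CPM is the count over total count times TMM factor (1.023, 0.9595 and 1.018). Variability was tested with an intercept-only edgeR 4.0.16 quasi-likelihood fit (R 4.3.3) to all genes passing filterByExpr, comparing residual deviance with the robust prior variance by an F test, with Benjamini-Hochberg adjustment over all genes. It was tested on simulated counts. Thinned numbers are hypergeometric expectations. Windows of 50 bases were compared without gaps, V exons by global alignment (Biopython 1.88). Counts were not divided by exon length (294 to 480 nt heavy, 338 to 501 nt kappa).

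Named segments were the leaders, the 12 minor segments of highest mean CPM and the 5 highest of each tumour per chain, the 2 V rows on each side of a leader, any called in the test, and those in the lists. The members, lists and tests were chosen with earlier results of these data known. Tumours are numbered in accession order. Some genes of the marker lists are not reported here.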

Additional observations from a re-analysis of the deposited data

How the results depend on the processing

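Leaving out the family of the leading segment took the mean minor heavy share from 20.4% to 6.68% and its level from 69.4 to 22.1 CPM, while the kappa share stayed at 2.62%. Leaving out Ighv8-8 and Ighv1-19, an alternative chosen after seeing the data, gave a heavy share of 3.84%. With Ighv1-19 and both leading families left out, also chosen after seeing the data, minor heavy lay below minor kappa, with a log2 difference of -1.65. Division by exon length gave shares of 20.0% and 2.93%. Segments with at least 10 counts in total gave 19.3% and 2.49%.

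Over the 3 tumours together, 79 minor heavy and 73 minor kappa segments had at least 1 count. At a minimum of 3 counts these were 52 and 53, and at 10 they were 15 and 28. Leaving out each tumour in turn gave 32 to 77 heavy and 53 to 70 kappa segments, the lowest in each chain without tumour 1. It gave heavy shares of 17.7% to 22.2% and kappa shares of 0.940% to 3.99%, again lowest without tumour 1, and log2 heavy minus kappa differences of 1.18 to 2.42. With DESeq2 size factors and raw totals the minor heavy level was 69.4 and 69.9 CPM, and the minor kappa level 26.7 and 27.0 CPM. All 38 named segments stayed within 1 SD between tumours under both scalings. That limit is wide where the SD exceeds the mean, as for Igkv9-129 (2.41 ± 4.17 CPM). Named segments without a count could not move. The edgeR variability test called 16 genes, 15 with DESeq2 size factors, 0 with a mean count of at least 10 and 164 without a filter. Without tumours 1, 2 and 3 in turn it called 0 to 11, 0 without tumour 1 and 0 without tumour 2, where 654 and 606 genes had an unadjusted p under 0.05. The cause was not tested. Apart from the sign-flip test, which paired the chains within each tumour, no paired analysis was possible because there is 1 group. Below 3 counts per library, presence of a segment cannot be told from a stray read. Counts a little above that are not secure either. A V pseudogene reached 6 counts in tumour 3. A T cell receptor V segment reached 9 in tumour 1, where T cell genes were counted too.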
